A study of Rattus norvegicus with 6 samples.

Results

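The D cyclins, the kinases CDK4 and CDK6 and the CDK inhibitors were examined through the accessible sites (ACS) nearest to their 10 genes, *Ccnd1*, *Ccnd2*, *Ccnd3*, *Cdk4*, *Cdk6*, *Cdkn1a*, *Cdkn1b*, *Cdkn1c*, *Cdkn2a* and *Cdkn2b*. Every ACS whose nearest gene in the deposited table was one of these genes was taken, which gave 89 of the 101603 distinct ACS. The study compared by ATAC-seq the pancreatic islets of Sprague-Dawley rats as adults and at postnatal day 10 (P10). ATAC-seq uses the transposase Tn5, which inserts sequencing adapters where DNA is open, and the values are counts of Tn5 integrations in each ACS. The 3 adult libraries each came from 1 male rat and carry the replicate numbers 4, 5 and 6, and the 3 P10 libraries each came from a mix of a few pups of 1 litter, male and female, and carry the numbers 1, 2 and 3. No treatment or genetic change was given to either group. All islets were isolated with collagenase, handpicked and dissociated before the Tn5 reaction, but the digestion differed. Adult rats had collagenase injected into the pancreatic duct and a longer digestion in a warm bath. Pooled P10 pancreases were digested by hand shaking. Age, sex, the way of digestion and single rats against pooled pups differed together and cannot be told apart. The cells were not sorted, so a change in the share of a cell type and a change of openness per cell cannot be told apart either.

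D-type cyclins are the regulatory subunits of CDK4 and CDK6. The active complexes phosphorylate the retinoblastoma protein RB, which frees E2F factors to switch on the genes of DNA replication. Inhibitors of the CIP/KIP family (p21 from *Cdkn1a*, p27 from *Cdkn1b*, p57 from *Cdkn1c*) bind cyclin-CDK complexes, while the INK4 inhibitors (p16 from *Cdkn2a*, p15 from *Cdkn2b*) bind CDK4 and CDK6 themselves. In rodents, β-cells divide often in the first weeks of life and rarely in adults. Cyclin D2 and CDK4 are needed for the postnatal growth of β-cell mass in mice, and p16 is known to accumulate in islets with age.

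RefSeq (build GRCr8) gave promoter windows for 6 of the 10 genes, and 3 of them are shown, for the start with the highest level per kb (*Cdkn2b*), the one with the lowest (*Cdk4*) and the gene whose ACS all lie at its start (*Ccnd3*). Each stretch has 190 bases, from 250 to 61 bases before the transcript start, 5′ to 3′ on the gene's strand, and capitals mark matches on either strand to the GC box (GGGCGG), the CCAAT box, the E-box (CACGTG) or the cyclic AMP response element (TGACGTCA). The *Cdkn2b* window lies at chr5:109134916-109135105 on the minus strand, the *Cdk4* window at chr7:64771203-64771392 on the plus strand and the *Ccnd3* window at chr9:20897936-20898125 on the minus strand.
Cdkn2b: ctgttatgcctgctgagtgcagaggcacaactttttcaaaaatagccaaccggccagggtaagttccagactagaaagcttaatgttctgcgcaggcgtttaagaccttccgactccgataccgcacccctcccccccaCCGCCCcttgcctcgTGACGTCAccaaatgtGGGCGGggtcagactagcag
Cdk4: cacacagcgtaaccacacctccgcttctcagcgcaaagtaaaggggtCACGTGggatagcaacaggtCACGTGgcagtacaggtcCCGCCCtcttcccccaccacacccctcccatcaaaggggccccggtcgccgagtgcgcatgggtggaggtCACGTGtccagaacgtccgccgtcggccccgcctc
Ccnd3: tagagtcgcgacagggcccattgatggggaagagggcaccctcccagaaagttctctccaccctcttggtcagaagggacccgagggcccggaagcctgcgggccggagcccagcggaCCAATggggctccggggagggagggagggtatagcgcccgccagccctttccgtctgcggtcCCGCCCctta

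The *Cdk4* window held 3 E-boxes, and 3.9% of the 33469 RefSeq windows of this length held at least 1. *Cdkn2b* held 1 cyclic AMP response element, found in 0.798% of all windows, and 2 GC boxes. GC boxes were also present once each in the *Cdk4*, *Ccnd3* and *Cdkn1b* windows, against 22.5% of all windows. A CCAAT box was found once for *Ccnd3* and at 2 places for *Cdkn1b*, against 27.4% of all windows. The AP-1 motif (TGANTCA, in 4.93% of all windows), the STAT motif (TTCNNNGAA, in 5.99%) and the TATA box (TATAAA, in 9.52%) were in none of the 6 windows, and the *Cdkn1a* and *Cdkn2a* windows held none of the 7 motifs. These matches describe letters only. The ACS themselves are given by their coordinates on Rn5, the build of the deposited table.

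The adult libraries held 7916919 to 11903909 integrations in ACS and the P10 libraries 13491534 to 21168463, with a median of 36 to 53 and 63 to 96 per ACS. As a percentage of a library's total reads, these integrations came to 2.48 to 3.05 in adults and 4.05 to 5.77 at P10, without overlap. This yield thus differed together with age, and its part in the results was not tested. Pairs of libraries of 1 age varied beyond counting error (chi-square over degrees of freedom, 3.35 to 7.81). Of the islet markers, 8 of 10 β-cell genes had ACS (not *Mafa* and *G6pc2*), whose summed level was 1065 to 1256 CPM in adults and 1008 to 1322 CPM at P10. All 6 α-cell genes had ACS, at 907 to 1037 CPM in adults and 766 to 851 CPM at P10, and all 4 δ-cell genes, at 235 to 302 and 253 to 290 CPM. Other lists also stood higher in every adult library than in any P10 library, namely 4 of 6 duct genes (244 to 277 against 212 to 236 CPM), all 7 endothelial genes (398 to 478 against 365 to 393 CPM) and 6 of 7 mesenchymal genes (383 to 433 against 362 to 380 CPM, no ACS for *Acta2*). Groups overlapped for 8 of 10 acinar genes (413 to 471 against 386 to 420 CPM, no ACS for *Cela1* and *Cel*), for 6 of 7 immune genes (60.1 to 62.8 against 55.1 to 60.2 CPM, no ACS for *Cd68*) and for 9 of 10 proliferation genes (394 to 422 against 388 to 435 CPM, no ACS for *Mki67*). The 2 of 5 Schwann cell genes with ACS stood lower in every adult library (7.61 to 9.06 against 10.1 to 12.3 CPM). Summed only over ACS that began within 1 kb of a gene start, the order differed. There the duct genes stood lower in every adult library (17.5 to 20.2 against 24.7 to 34.4 CPM). So did the δ-cell genes (31.1 to 35.1 against 40.7 to 47.6 CPM). No list stood higher in every adult library by this measure, and the immune and Schwann cell lists had no such ACS. The part of these lists in the results below was not tested.

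Between P10 and adult islets, 9 of the 89 ACS rose, 8 fell and 72 were not called, with edgeR's quasi-likelihood test at an unadjusted p under 0.05 and a false discovery rate under 0.2 over all ACS. All 9 that rose were distal, near *Cdkn2b* (4 ACS), *Cdk6* (3 ACS), *Ccnd2* (1 ACS) and *Cdkn1a* (1 ACS), and they rose by 0.55 to 1.10 on the log2 scale. Those that fell lay near *Ccnd1* (3 ACS), *Cdk6* (2 ACS), *Ccnd2*, *Cdkn1c* and *Cdkn2b* (1 ACS each). Of all ACS, 12.3% rose and 6.63% fell. The share of members that rose, 10.1%, was a little below this background and the share that fell, 8.99%, a little above it. At the same limits the study reported the opposite balance, with more ACS that fell than rose. The study's shares come from its own fit and are thus no background for the member calls given here. Why the balances differ was not tested. A positive log2 fold change stands for a higher level in adults throughout. Levels are in CPM, the integrations of an ACS divided by all integrations in ACS of the library, after TMM scaling, and put on the usual CPM scale. The median log2 fold change of the 89 ACS was -0.07, beside -0.01 over all ACS.

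By class, 9 ACS began within 1 kb of a gene start (TSS class), 17 lay between 1 and 10 kb away (proximal) and 63 farther away (distal). Of the TSS class, 0 rose and 1 fell, beside 2.73% and 7.87% of all ACS of that class. Among proximal members 0 rose and 1 fell, beside 11.2% and 6.71%. Distal members gave 9 that rose and 6 that fell, which is 14.3% and 9.52%, beside 13.8% and 6.45% of all distal ACS. Adult and P10 libraries did not overlap at 14 members that stood higher in adults and at 13 that stood lower, which is 15.7% and 14.6% of the 89, where the table as a whole gave 13.8% and 10.9%. Among called ACS a lack of overlap is usual. It was found at 88.9% of the members that rose and 87.5% of those that fell, beside 84.3% and 83.0% of all called ACS.

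The members that rose and those that fell differed in depth. Those that rose had a mean of 71.8 to 481 integrations per library, with a median of 144, and those that fell had 13.8 to 70.7, with a median of 34.5. Among the 34 members with a mean under 50 integrations, 0 rose and 6 fell. In the whole table, 4.85% of the ACS under that mean rose and 7.32% fell, against 17.3% and 6.17% of the ACS above it. Counting error is largest at these thin ACS, and the part of depth in the calls was not tested.

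**Figure D1:**
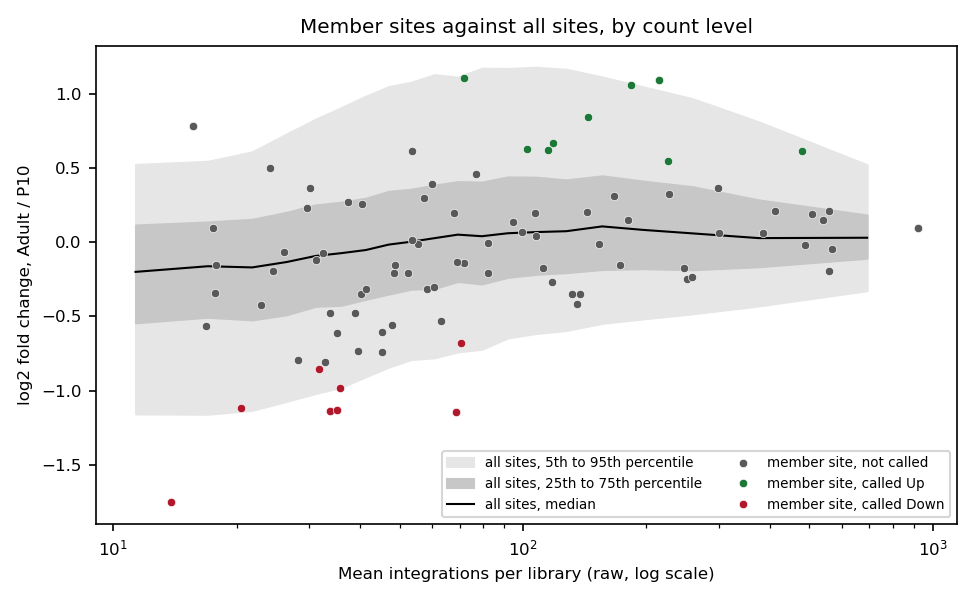
Log2 fold change (Adult over P10, y axis) of the 89 member ACS against their mean integrations per library (x axis, log scale), over grey bands that span the 5th to 95th and the 25th to 75th percentiles of all ACS in 20 bins of equal size, with their median as a line. The 9 member ACS that rose (green) have means of 71.8 to 481 integrations, and 6 of the 8 that fell (red) have means under 50.

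Levels at the gene starts were compared per kb of ACS, since the ACS differ in width from 217 to 1430 bp. The ACS at the *Cdkn2b* start had the highest level, at 69.1 ± 9.25 CPM per kb in adults and 64.8 ± 2.60 at P10 (SD, n = 3 each). It was followed by the wider *Ccnd3* ACS (60.2 ± 7.35 and 52.1 ± 3.21), *Cdkn1c* (44.8 ± 4.41 and 52.9 ± 7.11) and *Cdkn1b* (42.3 ± 3.87 and 48.4 ± 3.53 CPM per kb). These neighbours in the order lay within each other's spread at 1 age or both. *Ccnd2* (29.3 ± 2.64 and 34.9 ± 1.16), *Cdk6* (27.8 ± 3.35 and 28.7 ± 1.09) and the narrower *Ccnd3* ACS (30.9 ± 0.755 and 22.6 ± 4.56) came next. In adults the lowest levels were at *Ccnd1* (14.1 ± 3.76 and 22.9 ± 5.09) and *Cdk4* (10.4 ± 1.73 and 10.1 ± 2.69 CPM per kb), while at P10 *Ccnd1* and the narrower *Ccnd3* ACS lay within each other's spread above *Cdk4*. *Cdkn1a* and *Cdkn2a* had no ACS of the TSS class.

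**Figure D2:**
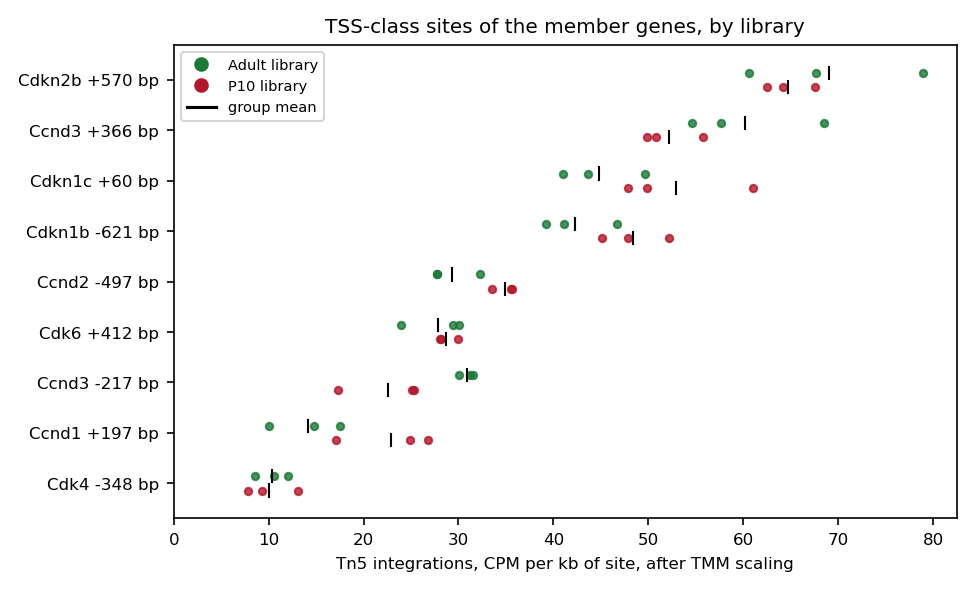
Level of the 9 TSS-class member ACS in every library (points; x axis, CPM per kb of ACS after TMM scaling), with the mean of each group as a black bar; the y axis gives the gene and the distance from its start. The *Cdkn2b* ACS stands at 64.8 and 69.1 CPM per kb in the means of P10 and adults, and *Ccnd1* is the 1 start that was called, lower in adults.

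*Ccnd1* encodes cyclin D1. Its 7 ACS gave 6 negative and 1 positive log2 fold change, and 3 of them fell. Over the whole table, 51509 of 101603 ACS had negative log2 fold changes and 6.63% fell. The ACS at the gene start (chr1:224969461-224969716) had 3.80, 4.48 and 2.58 CPM in Adult replicates 4, 5 and 6 and 6.37, 6.85 and 4.39 CPM in P10 replicates 1, 2 and 3, the order used for every set of values here. The highest adult library overlapped the lowest P10 library. The log2 fold change was -0.68 ± 0.30 (SE), with an adjusted p of 0.178. This call was lost without Adult replicate 4 (adjusted p = 0.262), Adult replicate 6 (0.445), P10 replicate 1 (0.286) or P10 replicate 2 (0.455), and with voom (0.220).

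A second *Ccnd1* ACS lay inside the gene, 2249 bp from its start (chr1:224967409-224967703), with 2.62, 2.24 and 3.48 CPM in adults and 7.02, 6.35 and 4.92 CPM at P10. Every adult library was below every P10 library. It fell by 1.15 ± 0.30 on the log2 scale (adjusted p = 0.0145), which is 2.19-fold between the means, and the call held with any 1 library left out. The third lay 44218 bp upstream (chr1:225013876-225014244) at 1.08, 1.95 and 1.80 CPM in adults and 2.93, 3.85 and 2.75 CPM at P10, again without overlap, and fell by 0.98 ± 0.37 (adjusted p = 0.101). Its call was lost without Adult replicate 4 (adjusted p = 0.319) or P10 replicate 2 (0.348). The richest *Ccnd1* ACS, 10151 bp from the start and just beyond the gene's 3′ end (chr1:224959507-224960098), had 40.4 ± 6.89 CPM in adults and 36.4 ± 8.73 at P10 (log2 fold change 0.15 ± 0.18), and was not called. The other 3 ACS had log2 fold changes of -0.53, -0.14 and -0.15, with none called.

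*Ccnd2*, the gene of cyclin D2, had 23 ACS, the most of any member. They were spread from 8125 bp inside to 308135 bp upstream, and 17 of 23 log2 fold changes were negative, with a median of -0.15. Of all 101603 ACS, 51509 were negative. A mean under 50 integrations was found at 14 of the 23, and bins of all ACS at such means had medians of -0.20 to -0.02. A single ACS rose, 87353 bp upstream (chr4:231818096-231818811). It had 25.2, 22.8 and 22.4 CPM in adults and 10.3, 10.1 and 12.6 CPM at P10, so the adult libraries stood at about the same level, well above all P10 libraries. The log2 fold change was 1.09 ± 0.20 and the adjusted p 0.000571, the smallest among the 89 members, and the difference was 2.13-fold. The call held with any 1 library left out, at 1.02 to 1.19.

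The *Ccnd2* ACS that fell lay 265425 bp upstream (chr4:231640024-231640253) and rested on few counts. It held 2, 7 and 2 integrations in adults and 36, 14 and 22 at P10, or 0.181, 0.682 and 0.258 CPM against 1.67, 0.999 and 1.16 CPM. The groups did not overlap, and the log2 fold change was -1.75 ± 0.54 (adjusted p = 0.0388), and the call held with any 1 library left out, at -2.56 to -1.38. An ACS this thin in adults may have entered the table through P10 alone, so these values are not independent of how it was chosen. DESeq2 gave this ACS no adjusted p. At the gene start (chr4:231904952-231905499) the 3 adult libraries had 17.7, 15.2 and 15.2 CPM and the P10 libraries 19.5, 19.5 and 18.4 CPM. Adults were below P10 without overlap, by a log2 fold change of -0.25 ± 0.19 that did not pass the test (adjusted p = 0.51) but did with cyclic loess scaling (-0.37, adjusted p = 0.196). The richest *Ccnd2* ACS, 190844 bp upstream (chr4:231714605-231715350), had 35.1 ± 4.56 and 35.6 ± 5.26 CPM, a log2 fold change of -0.02 with a 95% interval of -0.36 to 0.32.

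Cyclin D3 is encoded by *Ccnd3*, which had 2 ACS, both at its start. The wider (chr9:14331891-14332424) had 36.6, 30.8 and 29.1 CPM in adults and 29.8, 26.6 and 27.1 CPM at P10, with overlapping groups. The narrower, 217 bp upstream (chr9:14332474-14332690), had 6.78, 6.52 and 6.83 CPM in adults and 5.44, 5.49 and 3.75 CPM at P10. All adult libraries were higher there, but neither ACS was called (log2 fold changes 0.21 ± 0.17 and 0.46 ± 0.27, adjusted p = 0.543 and 0.351).

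*Cdk4* had a single ACS, at its start (chr7:70527199-70527934). Its level was 8.86, 7.79 and 6.32 CPM in adults and 9.62, 5.78 and 6.87 CPM at P10. The groups overlapped, and the log2 fold change was 0.04 with a 95% interval of -0.46 to 0.55. Its sign turned under other scalings, to -0.05 with the column sums as library sizes.

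*Cdk6* had 21 ACS, of which 7 lay inside the gene, 1 overlapped its start and 13 lay upstream. Inside the gene 2 rose and 0 fell, and upstream 1 rose and 2 fell, where 12.3% of all ACS rose and 6.63% fell. A mean under 50 integrations was found at 2 of the 7 inner and 7 of the 13 upstream ACS. Whether the 2 stretches differ was not tested. Of the 2 that rose inside the gene, the one with the higher level, 56154 bp from the start (chr4:27813380-27814095), had 48.2, 37.5 and 47.2 CPM in adults and 31.1, 24.0 and 31.3 CPM at P10. No adult library reached down to the P10 range. It rose by 0.62 ± 0.17 (adjusted p = 0.0221), a call lost without P10 replicate 2 (adjusted p = 0.206).

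The other inner *Cdk6* ACS that rose, 57752 bp from the start (chr4:27811782-27812104), had 14.7, 12.1 and 17.4 CPM in adults and 7.62, 8.92 and 8.09 CPM at P10. It did not overlap between ages and rose by 0.84 ± 0.23, or 1.80-fold (adjusted p = 0.0158), also with any 1 library left out. Upstream by 44394 bp (chr4:27913928-27914467), an ACS had 11.5, 13.3 and 8.38 CPM in adults and 6.41, 7.42 and 7.24 CPM at P10. It rose by 0.66 ± 0.24 (adjusted p = 0.0878), without overlap, and its call was lost without Adult replicate 5 (adjusted p = 0.266) or P10 replicate 2 (0.208), and with cyclic loess (0.224).

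Both *Cdk6* ACS that fell were thin. The one 65750 bp upstream (chr4:27935284-27935628) had 1.27, 1.36 and 1.55 CPM in adults and 2.60, 3.71 and 2.91 CPM at P10, and fell by 1.14 ± 0.37 (adjusted p = 0.0507). The one 151924 bp upstream (chr4:28021458-28021764) had 1.63, 1.56 and 1.29 CPM and 2.18, 2.85 and 3.17 CPM, and fell by 0.86 ± 0.37 (adjusted p = 0.166). Neither overlapped between the ages. The first call was lost without P10 replicate 2 (adjusted p = 0.225), and the second without any one of Adult replicates 4 (0.230), 5 (0.208) and 6 (0.330) and P10 replicates 2 (0.349) and 3 (0.391), and with voom (0.218) or cyclic loess (0.223). The *Cdk6* start (chr4:27869122-27870551) had 42.9, 34.3 and 42.2 CPM in adults and 42.9, 40.2 and 40.1 CPM at P10. These levels overlapped, with a log2 fold change of -0.05 and a 95% interval of -0.36 to 0.27. The richest inner ACS, 95081 bp from the start (chr4:27774453-27775389), had 44.2 ± 2.24 and 38.2 ± 3.44 CPM and was not called (adjusted p = 0.509).

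**Figure D3:**
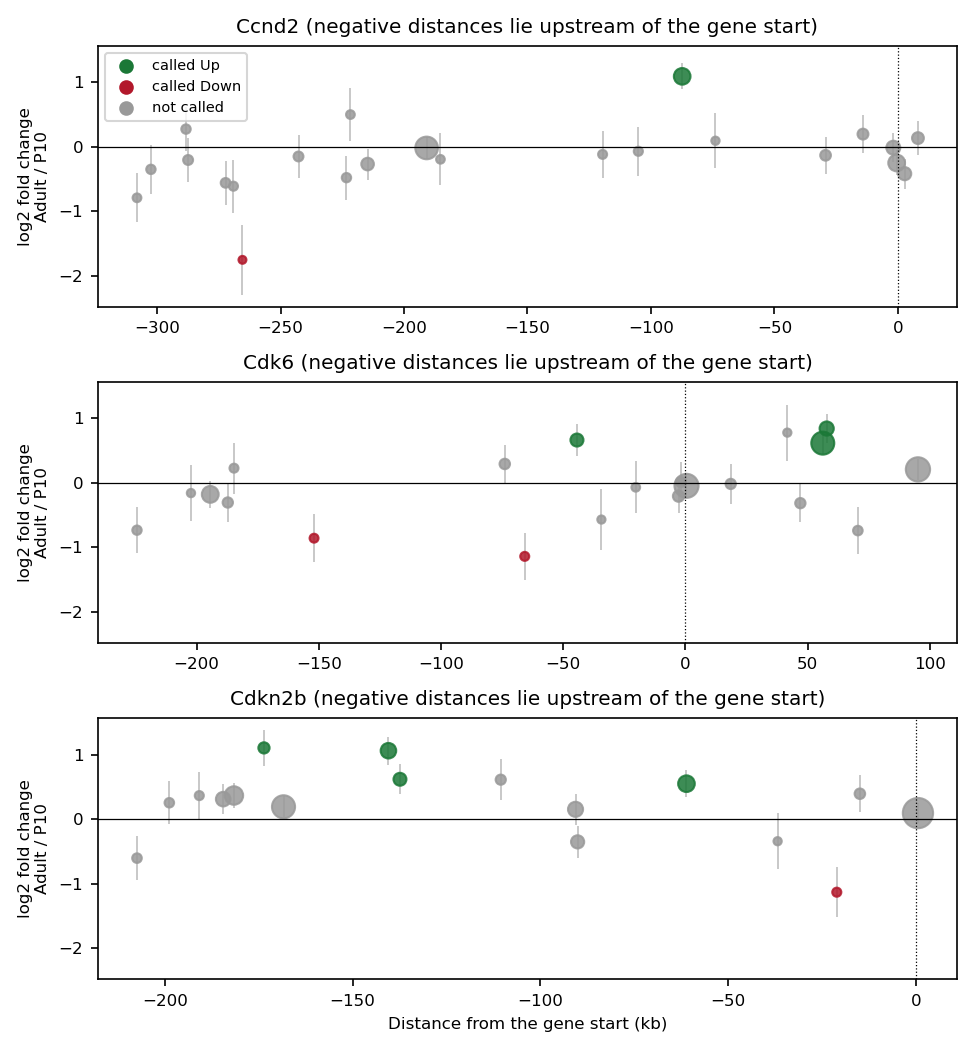
Log2 fold change (Adult over P10, y axis) of every ACS of *Ccnd2*, *Cdk6* and *Cdkn2b* by its distance from the gene start (x axis, kb; negative distances are upstream); bars are the SE and the point area grows with the mean CPM. Green points rose, red points fell and grey points were not called, and in *Cdkn2b* all 9 ACS between 100 and 200 kb upstream have positive values.

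*Cdkn1a*, the p21 gene and a target of p53, had 7 ACS and none at its start. An ACS 71536 bp away, downstream of the gene (chr20:8663973-8664404), was the one called, with 9.13, 10.4 and 8.25 CPM in adults and 9.11, 3.71 and 5.02 CPM at P10. P10 replicate 1 stood within the adult range. The log2 fold change of 0.63 ± 0.28 passed the test narrowly (adjusted p = 0.191), and the call was lost without Adult replicates 4 (0.273) or 5 (0.369), or without P10 replicates 2 (0.626) or 3 (0.468), with DESeq2 (0.238), column sums (0.263), cyclic loess (0.226), median-of-ratios factors (0.204) or a mean of at least 50 integrations (0.232). The value was 0.37 without P10 replicate 2 and 1.07 without P10 replicate 1. Inside the gene, the ACS 2749 bp from the start (chr20:8595186-8595794) had 7.32, 11.6 and 6.45 CPM in adults and 10.6, 13.8 and 8.14 CPM at P10. It was not called (log2 fold change -0.35 ± 0.26, adjusted p = 0.489), but it was called without Adult replicate 5 (-0.65, adjusted p = 0.173). The other 5 ACS had log2 fold changes from -0.81 to 0.19.

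*Cdkn1b*, the p27 gene, had 5 ACS, and none was called. At its start (chr4:232961706-232962567) the adult libraries had 40.2, 33.8 and 35.4 CPM and the P10 libraries 44.9, 41.3 and 38.9 CPM. The groups overlapped only through Adult replicate 4, and the log2 fold change was -0.19 ± 0.16 (adjusted p = 0.558). With ACS under a mean of 50 integrations left out, this ACS was called as lower in adults (-0.28, adjusted p = 0.172). The other 4 had log2 fold changes from -0.18 to 0.20.

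*Cdkn1c*, the p57 gene and an imprinted gene, had 3 ACS. The ACS 71645 bp downstream of its start (chr1:223452327-223452581) held 9, 11 and 5 integrations in adults and 28, 36 and 34 at P10, or 0.813, 1.07 and 0.645 CPM against 1.3, 2.57 and 1.80 CPM. It fell by 1.12 ± 0.44 (adjusted p = 0.124), without overlap, on the lowest counts of any called member but the thin *Ccnd2* ACS. The call was lost without Adult replicate 4 (adjusted p = 0.235), Adult replicate 6 (0.283), P10 replicate 2 (0.440) or P10 replicate 3 (0.225), and with cyclic loess (0.209). Its start (chr1:223523912-223524286) had 18.6, 15.4 and 16.4 CPM in adults and 17.9, 22.9 and 18.7 CPM at P10, with overlap. That ACS and the third, 162718 bp away (21.9 ± 3.92 and 21.0 ± 3.03 CPM), were not called (adjusted p = 0.549 and 0.904).

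*Cdkn2a*, the gene of p16 and ARF, had 3 ACS, none at its start and none called. The richest, 9479 bp upstream of the start that the table uses (chr5:111810699-111811478), had 17.2, 16.2 and 22.9 CPM in adults and 17.4, 12.6 and 14.8 CPM at P10. Adult replicate 6 was the highest library, and the groups overlapped (log2 fold change 0.32 ± 0.21, adjusted p = 0.415). The table gives *Cdkn2a* a span of 244251 bp on Rn5, and the distances and classes of its ACS depend on this gene model. The other 2 had log2 fold changes of -0.01 and -0.48.

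*Cdkn2b*, the p15 gene, lies beside *Cdkn2a* and is known to be induced by TGF-β. It had 17 ACS, 1 at the start and 16 upstream as far as 207411 bp, and 13 of the 17 log2 fold changes were positive, with a median of 0.31. Of all 101603 ACS, 50094 were positive. At *Cdkn2b* 4 ACS rose and 1 fell, which is 23.5% and 5.88%, beside 12.3% and 6.63% of all ACS. A mean under 50 integrations was found at only 5 of the 17, and their median was 115. Of all ACS with a mean of at least 50, 17.3% rose and 6.17% fell, so the share that rose lay nearer to the background of such depth. The part of depth in these calls was not tested. The start (chr5:111825826-111826816) had 78.3, 60.1 and 67.0 CPM in adults and 67.0, 61.9 and 63.6 CPM at P10. It overlapped between the ages, and its log2 fold change of 0.09 had a 95% interval of -0.21 to 0.39.

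Between 100 and 200 kb upstream, *Cdkn2b* had 9 ACS, with log2 fold changes from 0.19 to 1.10, and 6 of the 9 stood higher in every adult library than in any P10 library. Of all distal ACS, 15.2% stood so. This stretch was picked after its values were seen, and its count has no test. The ACS 140446 bp upstream (chr5:111966842-111967289) had 22.9, 16.8 and 19.5 CPM in adults and 11.2, 8.06 and 9.04 CPM at P10, and rose by 1.06 ± 0.22 (adjusted p = 0.00167). The ACS 173594 bp upstream (chr5:111999990-112000250) had 7.59, 9.15 and 6.57 CPM in adults and 4.69, 2.92 and 3.17 CPM at P10, and rose by 1.10 ± 0.28 (adjusted p = 0.0109). Adult levels were 2.09-fold and 2.16-fold those at P10, and both calls held with any 1 library left out. The ACS 137377 bp upstream (chr5:111963773-111964241), with 10.3, 11.2 and 10.7 CPM against 6.28, 7.56 and 7.19 CPM, rose by 0.62 ± 0.23 (adjusted p = 0.103). It did not overlap between the ages, and the call was lost without P10 replicate 2 (adjusted p = 0.219) or P10 replicate 3 (0.211), and with cyclic loess (0.202).

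Nearer to *Cdkn2b*, the ACS 61079 bp upstream (chr5:111887475-111888011) had 23.9, 17.4 and 20.4 CPM in adults and 11.8, 15.7 and 14.8 CPM at P10. It rose by 0.55 ± 0.20 (adjusted p = 0.099), without overlap, and its call was lost without Adult replicate 4 (adjusted p = 0.317) or P10 replicate 1 (0.243). The ACS that fell, 21045 bp upstream (chr5:111847441-111847695), had 1.72, 1.56 and 1.03 CPM in adults and 2.51, 4.64 and 2.59 CPM at P10. Its groups did not overlap, P10 replicate 2 was the highest library, and it fell by 1.13 ± 0.38 (adjusted p = 0.064), a call lost without that library (adjusted p = 0.373). The other 11 upstream ACS had log2 fold changes from -0.60 to 0.61 and none was called.

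**Figure D4:**
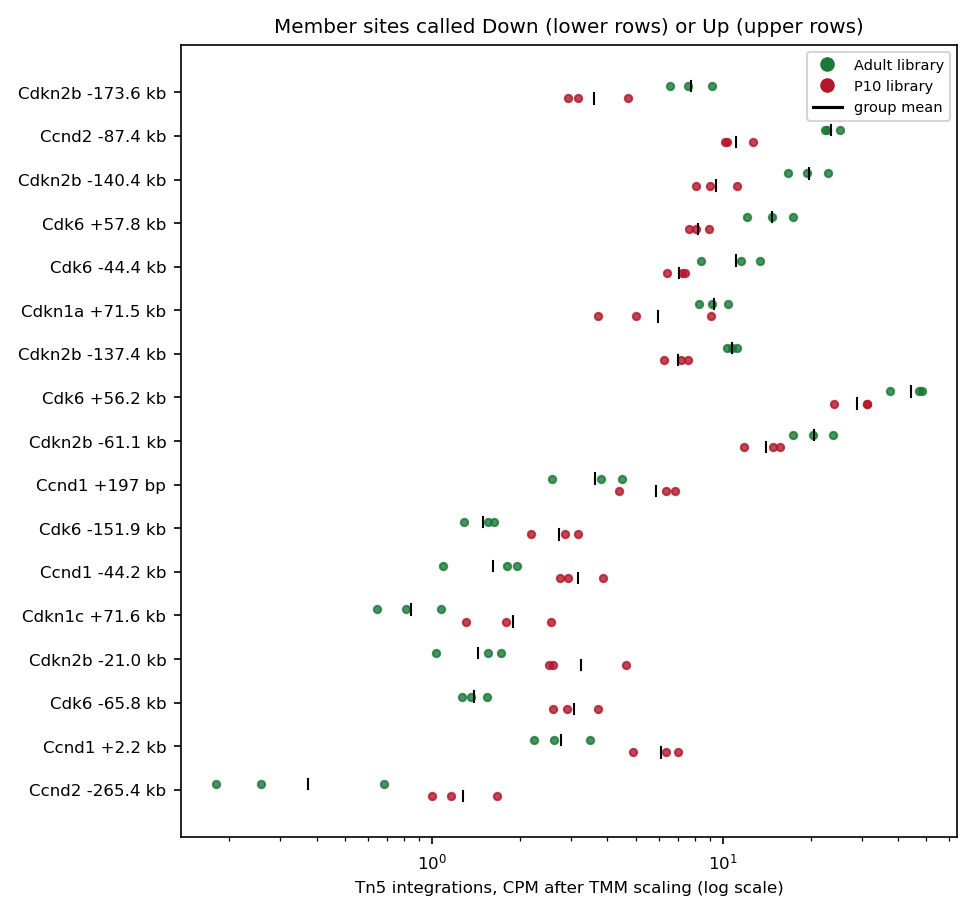
Level of the 17 called member ACS in every library (points; x axis, CPM after TMM scaling, log scale), with the mean of each group as a black bar and the gene and distance from its start on the y axis. The 9 ACS that rose fill the upper rows and the 8 that fell the lower rows, and the groups overlap at 2 of the 17, the *Ccnd1* start and the *Cdkn1a* ACS. Of all ACS in the table that were called, 84.3% of those that rose and 83.0% of those that fell were without overlap.

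Summed over all ACS of a gene, no member was called by edgeR, while 10.5% of the 13834 genes in the table rose and 7.69% fell. *Cdkn2b* was the 1 member with an unadjusted p under 0.05. Its ACS together had 269, 242 and 284 CPM in adults and 209, 219 and 236 CPM at P10, with every adult library above every P10 library. The log2 fold change was 0.26 ± 0.12 (unadjusted p = 0.0401, adjusted p = 0.21). DESeq2 called it as higher in adults (adjusted p = 0.158), and so did edgeR without Adult replicate 5.

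The summed log2 fold changes of the other inhibitors were -0.03 ± 0.16 for *Cdkn1a*, -0.05 ± 0.11 for *Cdkn1b*, -0.12 ± 0.13 for *Cdkn1c* and 0.16 ± 0.16 for *Cdkn2a*. For the cyclins they were -0.14 ± 0.12 for *Ccnd1*, -0.01 ± 0.12 for *Ccnd2* and 0.24 ± 0.13 for *Ccnd3*, and for the kinases 0.04 ± 0.25 for *Cdk4* and 0.14 ± 0.12 for *Cdk6*. The 95% interval of *Ccnd2* reached from -0.24 to 0.22 although its single ACS ran from -1.75 to 1.09. The genes whose summed log2 CPM followed *Cdkn2b* most closely over the 6 libraries were *Yap1* (Pearson r = 0.998), *Ppp2r3a* (0.996) and *Rnf152* (0.996). In all, 878 of the 13185 genes compared had an r above 0.9, over libraries that share their depth and age.

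**Figure D5:**
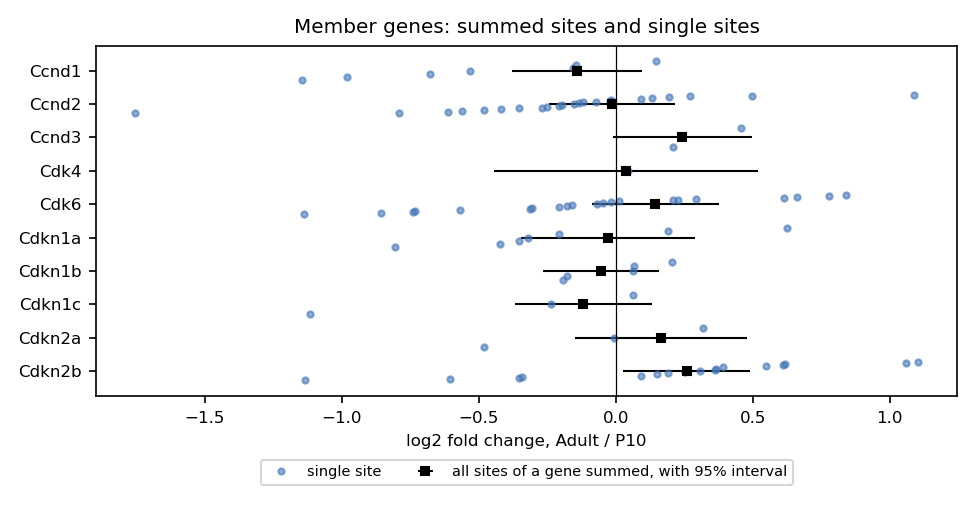
Log2 fold change (Adult over P10, x axis) of each member gene with all its ACS summed (black squares, bars are the 95% interval) and of its single ACS (blue points). Single ACS spread from -1.75 to 1.10, the sums from -0.14 to 0.26, and the interval of *Cdkn2b* alone lies above 0, with an adjusted p of 0.21.

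The share of a gene's integrations that fell in its TSS-class ACS compares parts of a locus within 1 library, so that no scaling between libraries enters. It could be computed for 6 members, and its mean was lower in adults for each. The share was 27.5 ± 1.48% in adults and 31.1 ± 1.59% at P10 for *Cdkn2b*, 40.1 ± 1.86% and 44.3 ± 1.33% for *Cdkn1b*, 18.8 ± 1.15% and 21.7 ± 2.08% for *Cdk6* and 10.8 ± 0.79% and 12.9 ± 1.38% for *Ccnd2* (SD, n = 3). Libraries of the 2 ages did not overlap for these 4 genes, each with a two-sided exact permutation p of 0.1, the smallest that 3 against 3 libraries allow, and 0.15 after adjustment over the 6 tests. They overlapped for *Ccnd1* (5.33 ± 1.2% and 7.87 ± 1.64%, exact p = 0.2, adjusted 0.24) and *Cdkn1c* (42.6 ± 2.44% and 46.5 ± 4.92%, exact p = 0.3). Leaving out 1 library kept each mean difference below 0 but moved 4 of them by over 1.5 times. The difference in percentage points went from -3.82 to -1.69 without P10 replicate 2 and -6.51 without P10 replicate 1 for *Cdkn1c*, from -2.54 to -1.63 without P10 replicate 2 for *Ccnd1*, and without P10 replicate 1 from -2.87 to -1.67 for *Cdk6* and from -2.10 to -1.37 for *Ccnd2*. Over the whole table, the 11055 ACS of the TSS class had a median log2 fold change of -0.10, beside 0.02 for distal ACS. Of the TSS class, 15.6% stood lower in every adult library and 5.24% higher, against 10.2% and 15.2% of distal ACS. The share itself was not computed for other genes, so the 4 of 6 members without overlap have no matching background.

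Other genes of the pathway were counted from 2 lists. Of 22 RB, E2F and G1/S partners, which act below or beside the D cyclins, 16 had ACS. Of their 110 ACS 17 rose and 4 fell, 15.5% and 3.64% against 12.3% and 6.63% of all ACS, and none of 14 TSS-class ACS was called. Of 16 regulators of D cyclins and CDK inhibitors 15 had ACS, 149 in all, of which 19 rose and 9 fell (12.8% and 6.04%). Of their 15 TSS-class ACS 1 fell, at *Smad3*, a transducer of TGF-β signals (chr8:68397705-68398296). It had 13.5 ± 1.17 CPM in adults and 18.5 ± 0.998 CPM at P10 (log2 fold change -0.46, adjusted p = 0.174), without overlap.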

How the data were processed

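ATAC-seq libraries of islets from 3 adult rats and 3 P10 litters were compared. The authors checked reads with FastQC 0.11.2, aligned them to Rn5 with BWA 0.7.13, filtered them with SAMtools 1.3 (dropping mitochondrial and poorly mapped reads), called ACS with MACS2 2.1.1 on the 3 samples of an age put together, merged both sets and counted integrations with pyDNase. The treatment of PCR duplicates is not given in the sources used here. They deposited whole-number counts per ACS and library, not normalized, with the nearest gene and with columns of their own comparison (log2 fold change, log2 CPM, F, p-value and FDR), which were not used.

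Of 101941 entries, 338 repeat an ACS under another gene, and each ACS was tested once. Counts were tested with edgeR 4.0.16 in R 4.3.3 (TMM factors, quasi-likelihood F-test, age as the only term, Benjamini-Hochberg adjustment over all 101603 ACS), and the SE is the log2 fold change divided by the root of F. Intervals are 1.96 SE. The edgeR p-values and intervals rest on the spread between 3 libraries per age, which edgeR moderates with that of all ACS. Counts were also summed per nearest gene and tested likewise, with the spread moderated over all genes. Counts were also simulated from the test's own model, with the means, dispersions and library sizes of these data. There the test was checked to call a part of the known changes in the right direction and to estimate their size. Besides library size and the known changes, no difference between the ages was simulated, so the check does not cover others. The 10 genes and the gene lists were chosen with earlier results of these data known, and not every list member is named here. All ACS at a gene start, all called ACS and each gene's richest ACS and ACS of smallest p are given with their values, and the others by ranges. Alternatives were DESeq2 1.42.0, limma 3.58.1 (voom, or cyclic loess), other library sizes, count filters, an FDR under 0.05, leaving out each library and, chosen after seeing the data, edgeR's newer quasi-likelihood method. Exact tests used scipy 1.17.1, and figures matplotlib 3.10.9.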

Additional observations from a re-analysis of the deposited data

How the results depend on the processing

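Members that rose numbered 7 to 9 and those that fell 7 to 12 with DESeq2, voom, cyclic loess, column sums, median-of-ratios factors, the usual expression filter and the newer edgeR method, the highest with column sums (8 rose, 12 fell). Of the 17 calls, cyclic loess lost 3 that rose and 2 that fell, voom 2 that fell and DESeq2 1 that rose, with 1 ACS that fell given no adjusted p by DESeq2. At an FDR under 0.05, 5 rose and 2 fell. With ACS under a mean of 50 integrations left out, 55 members remained, of which 8 rose and 4 fell, with a median of -0.026. Leaving out 1 library gave 5 to 9 that rose, 2 to 12 that fell and medians from -0.12 to -0.028, and the lowest counts (5 and 2) came without P10 replicate 2. Without Adult replicate 6, 5 fell, and without Adult replicate 5 or P10 replicate 1, 12 fell. Column sums shifted the median of all ACS to -0.10 and that of members to -0.16. With the total reads of each library as its size, the median of all ACS moved to -0.84 and that of members to -0.92, 0 members rose and 65 fell, and all 10 summed genes fell. Summed over each gene, DESeq2 called 1 gene as higher and leaving out 1 library 0 to 1, *Cdkn2b* in both cases. The shares of all ACS or all genes called under these alternatives are not given here. Whether the counts of members moved more or less than the whole table can thus not be told from them.

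With total reads, which put the median of all ACS at -0.84, signs turned at 13 of the ACS given with values. These were *Ccnd1* at 10151 bp (-0.72), both *Ccnd3* ACS (-0.63 and -0.40), *Cdk4* (-0.82), *Cdk6* at 95081, 56154 and 44394 bp (-0.62, -0.23 and -0.15), *Cdkn1a* at 71536 bp (-0.27), *Cdkn1c* at 162718 bp (-0.79), *Cdkn2a* at 9479 bp (-0.55) and *Cdkn2b* at its start and at 61079 and 137377 bp (-0.75, -0.26 and -0.20). *Cdk4* and *Cdkn1c* at 162718 bp also turned with column sums (-0.051 and -0.033), cyclic loess (-0.069 and -0.047) and the mean of at least 50 (-0.041 and -0.026), and the *Cdkn2b* start with column sums (-0.0047). Leaving out 1 library gave -0.0036 to 0.35 for *Ccnd1* at 10151 bp, -0.15 to 0.071 for *Ccnd2* at 190844 bp, -0.12 to 0.27 for *Cdk4*, -0.11 to 0.051 for the *Cdk6* start, -0.094 to 0.18 for *Cdkn1c* at 162718 bp and -0.015 to 0.18 for the *Cdkn2b* start. The cause was not tested. No paired analysis was possible because the 2 ages share no replicate numbers.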
